A study of Mus musculus with 20 samples.

Results

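The comparison described here set gene expression 1 hr after conditioned fear (CF) training against expression at the 0 hr time point. Its members were chosen by title: the 4 arrays labelled 1 hr and the 4 labelled 0 hr, which make 8 of the 20 arrays in the series. Each 1 hr array was paired with the 0 hr array of the same brain region and genotype, giving 4 pairs, namely amygdala WT, hippocampus WT, amygdala DKO and hippocampus DKO. All mice were C57BL/6 males of 2 months. DKO mice lack the 2 adenylyl cyclases that calcium and calmodulin stimulate, AC1 (gene Adcy1) and AC8 (gene Adcy8), and WT mice carry both. Every mouse in these 8 samples had been trained for 5 min with one 0.7 mA foot shock of 2 sec, so no untrained animal entered the comparison. In the study's terms 0 hr stands for acquisition and 1 hr for consolidation of the memory. Bilateral micropunches of the amygdala or hippocampus from 5 to 10 mice were pooled for each array, and each condition has 1 array. WT and DKO mice did not share litters, and DKO mice came from a transgenic colony in which an animal could carry one of the transgenes of an inducible AC8 system alone. The sources used here do not say whether both regions were taken from the same animals, so p-values measure only the spread between these pooled arrays.

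Neuronal firing and calcium entry switch on immediate early genes within minutes, and many of them code for transcription factors (Fos, the Egr and Nr4a families) that act on later genes. Calcium-stimulated adenylyl cyclases make cAMP, which acts through protein kinase A and the transcription factor CREB at cAMP response elements (CREs), while serum response factor acts at CArG boxes. A foot shock also releases glucocorticoid hormone, whose receptor switches on genes such as Fkbp5 and Sgk1 in many tissues.

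Expression levels are given as log2 values of the robust multi-array average (RMA), in which 1 unit is a doubling, and a change is the 1 hr array minus the 0 hr array of its pair. The arrays held 28853 transcript clusters, the probe groups that stand for a transcript, of which 21789 carried exactly 1 gene symbol, for 19938 genes. The array medians lay between 6.684 and 6.809, and the correlation between any 2 of the 8 arrays over all clusters ranged from 0.9841 to 0.9964. The level of Adcy8 followed the genotype labels. It was 7.15 and 7.48 in the WT amygdala and hippocampus at 0 hr and 7.08 and 7.14 at 1 hr, against 5.59 and 5.37 in DKO at 0 hr and 5.52 and 5.22 at 1 hr. Adcy1 was 8.37 and 9.32 in WT at 0 hr, 7.97 and 9.53 at 1 hr, and between 7.67 and 7.80 on the 4 DKO arrays. WT and DKO levels of both genes did not overlap. Prox1, a transcription factor of dentate granule neurons, followed the region labels, at 6.51 to 7.03 in the amygdala and 9.27 to 9.55 in the hippocampus. Its list of hippocampal neuron markers had mean levels of 7.36 to 7.56 and 8.41 to 8.48, but the member Wfs1 ran the other way (8.11 to 8.45 and 7.48 to 7.77). The list of amygdala neuron markers had means of 7.52 to 7.75 in the amygdala and 6.91 to 6.99 in the hippocampus. Ttr, a choroid plexus gene, was between 10.14 and 13.39 on the 8 arrays and set the 2 DKO pairs apart, as described below. The mean level of the striatal projection neuron marker list was 7.74 to 8.29 in the amygdala and 7.15 to 7.20 in the hippocampus.

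Across the 4 pairs, no transcript cluster passed the test in either direction. With limma, pairing the arrays by region and genotype and adjusting by Benjamini-Hochberg over all 28853 clusters, 0 (0%) were higher and 0 (0%) were lower at an adjusted p under 0.05, and the smallest adjusted p was 0.439. The counts were also 0 in each direction with any one pair left out. With the WT pairs alone, a fit added after seeing the data, 5 clusters were higher and 1 was lower, and single clusters of Tsen15 and Dnajc13, described below, were among the 5. At an unadjusted p under 0.05, 987 clusters (3.42%) were higher and 2090 (7.24%) were lower at 1 hr. That split turned to 2398 higher and 864 lower when each array was centred on its median, and to 1126 and 1170 after a further quantile normalization. At the level of genes, 1637 of 19938 (8.21%) were higher at 1 hr in all 4 pairs and 2528 (12.7%) were lower in all 4, and these shares are the background for the gene groups below. The balance depended on scaling: with median centring 3100 genes (15.5%) were higher and 1372 (6.88%) lower in all 4 pairs, and after quantile normalization 1492 (7.48%) and 1698 (8.52%). Nothing below is therefore called changed between 0 and 1 hr, and the values are given as levels, differences and counts.

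Egr2, an immediate early transcription factor of the zinc finger family that also directs myelination in peripheral nerve, was higher at 1 hr in 4 of 4 pairs. Its level went from 7.74 to 8.33 in the WT amygdala, from 7.14 to 7.54 in the WT hippocampus, from 7.32 to 8.04 in the DKO amygdala and from 6.58 to 7.79 in the DKO hippocampus. The levels at 0 hr and 1 hr overlapped, since the 1 hr value of the WT hippocampus lay below the 0 hr value of the WT amygdala, but each pair moved upward. The paired difference was 0.73 ± 0.12 on the log2 scale (moderated SE, 4 pairs), a ratio of 1.66, with an adjusted p of 0.439 in limma. Here and below, each SE is the moderated one of limma, which borrows spread from all clusters. It is therefore not the spread of the gene's own pairs. For Egr2 the SD of the 4 changes was 0.35. Leaving out one pair at a time gave differences between 0.57 and 0.84. The difference was 0.47 ± 0.18 (SE) larger in DKO than in WT pairs, which did not pass the test (adjusted p = 0.388).

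Nr4a2, an orphan nuclear receptor of the immediate early class, was also higher in 4 of 4 pairs. Its level went from 8.38 to 8.87 in the WT amygdala, 8.49 to 8.54 in the WT hippocampus, 8.49 to 9.11 in the DKO amygdala and 8.21 to 8.72 in the DKO hippocampus. All 1 hr levels lay above all 0 hr levels, and the step in the WT hippocampus was only 0.05. The difference was 0.42 ± 0.09 (moderated SE, 4 pairs), a ratio of 1.34, with an adjusted p of 0.439. The SD of the 4 changes was 0.25.

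**Figure D1:**
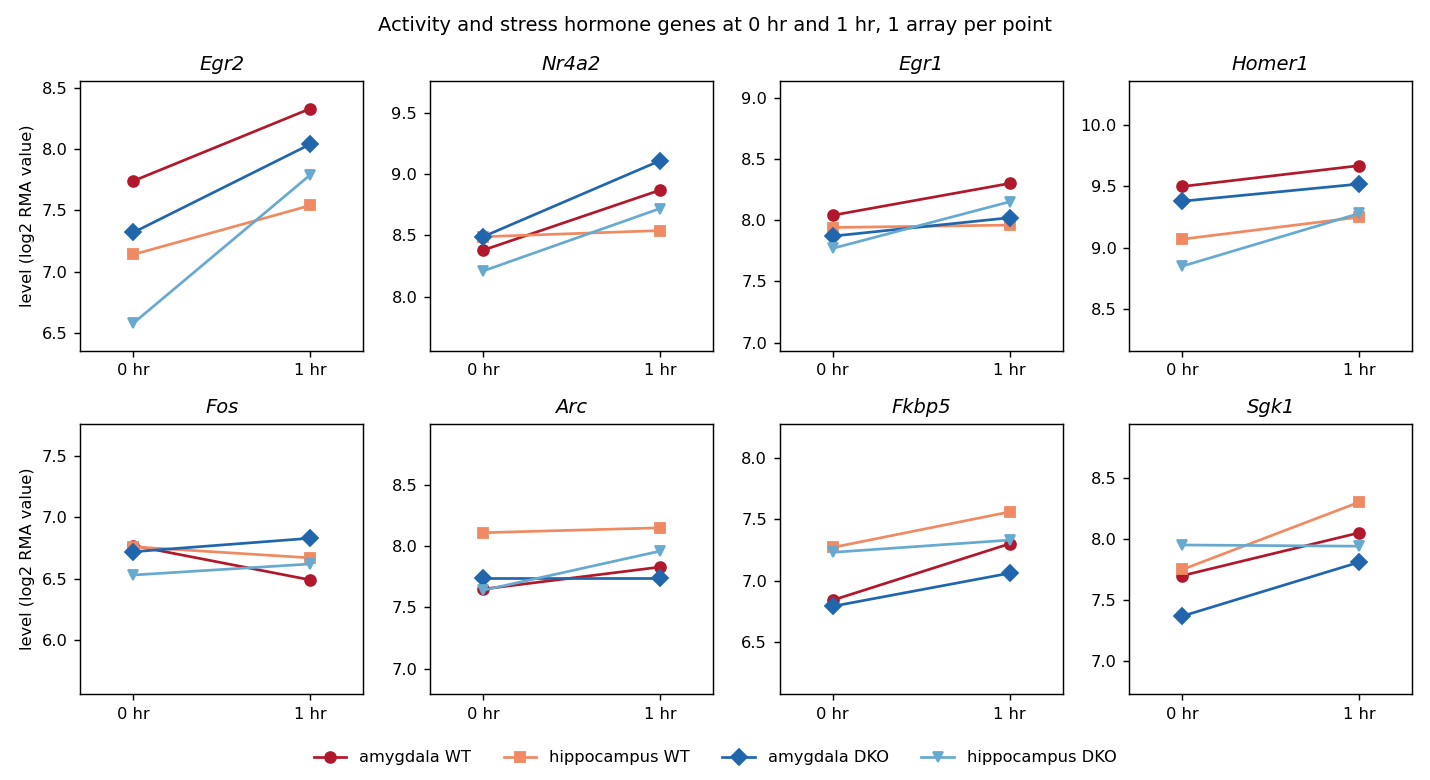
Levels (log2 RMA values) at 0 hr and 1 hr of single genes, with 1 line per pair of region and genotype and 1 array per point. Egr2 goes up in all 4 pairs, from 6.58 to 7.79 in the DKO hippocampus, whereas the lines of Fos cross.

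Other familiar immediate early genes gave mixed values. Fos, a subunit of the AP-1 factor, was 6.77, 6.76, 6.72 and 6.53 at 0 hr (amygdala WT, hippocampus WT, amygdala DKO, hippocampus DKO) and 6.49, 6.67, 6.83 and 6.62 at 1 hr. It was lower at 1 hr in both WT pairs and higher in both DKO pairs, with overlapping levels at both times, and neither the change (adjusted p = 0.853) nor the genotype difference passed. Fos lay near the array medians (6.684 to 6.809), and no detection call was set. The sign of its mean change over the 4 pairs, -0.04, turned with median centring and with quantile normalization. Arc, which codes for a postsynaptic protein that regulates glutamate receptor endocytosis, was 7.65, 8.11, 7.74 and 7.64 at 0 hr and 7.83, 8.15, 7.74 and 7.96 at 1 hr (difference 0.14 ± 0.07, adjusted p = 0.500). Its 0 hr and 1 hr levels overlapped. Egr1, a relative of Egr2, was 8.04, 7.94, 7.87 and 7.77 at 0 hr and 8.30, 7.96, 8.02 and 8.15 at 1 hr. It was higher in 4 of 4 pairs, by 0.20 ± 0.07 (SE), with an adjusted p of 0.443. The activity-dependent factor Npas4 differed by 0.31, -0.00, -0.35 and -0.18 in the same order, and Nr4a1 by -0.10, -0.07, 0.30 and 0.41. Junb, Egr3, Egr4, Nr4a3, Dusp1, Btg2 and Ier2 had adjusted p-values between 0.609 and 0.997. Of the neurotrophin gene Bdnf the changes were -0.15, -0.16, 0.12 and 0.03.

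As a group, the activity-induced transcription factors showed 3 of 32 genes higher in all 4 pairs (Egr1, Egr2 and Nr4a2) and 1 lower (Jund), shares of 9.38% and 3.12% against 8.21% and 12.7% of all genes. The median change of the list was 0.023, and that of all genes was -0.020. Leaving out one pair moved the list median to between 0.005 (without amygdala DKO) and 0.053 (without hippocampus WT), also 0.012 without hippocampus DKO, and median centring moved that of all genes to 0.026. Among 31 activity-induced effectors, 7 were higher in all 4 pairs and 2 lower, with a median of 0.051. Homer1, a scaffold of metabotropic glutamate receptors, went from 9.50, 9.07, 9.38 and 8.85 to 9.67, 9.25, 9.52 and 9.28, a difference of 0.23 ± 0.07 (SE). Its levels at the 2 times overlapped, and the largest step, 0.43, was in the DKO hippocampus. Errfi1, an inhibitor of the epidermal growth factor receptor, differed by 0.16, 0.20, 0.40 and 0.26. Among 15 feedback genes of the MAP kinase pathway, Spred1 was higher (0.22, 0.16, 0.17 and 0.26) and Spry2 lower (-0.44, -0.13, -0.07 and -0.10) in all 4 pairs. Both proteins restrain Ras to ERK signalling. Of 38 measured genes of the cAMP pathway, 4 were higher in all pairs, among them Adcy9, a cyclase that calcium does not stimulate (0.20, 0.29, 0.16 and 0.10), and 1 was lower. None of these genes passed the test.

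The promoters of 4 of these genes are shown with the elements through which calcium, cAMP and hormone signals are known to act. Each run is the 250 bases before a transcription start in RefSeq (GRCm38.p6), read 5′ to 3′ on the strand of the gene, at chr10:67537619-67537868 (plus strand) for Egr2, chr2:57124004-57124253 (minus) for Nr4a2, chr12:85473640-85473889 (plus) for Fos and chr10:21993640-21993889 (plus) for Sgk1. Capitals mark matches on either strand to the CRE core TGACG, the CArG box or the glucocorticoid response element. RefSeq lists 5 such windows for Egr2, 6 for Sgk1 and 1 each for Nr4a2 and Fos, and the window shown for Egr2 and for Sgk1 was picked because it holds a match.
Egr2: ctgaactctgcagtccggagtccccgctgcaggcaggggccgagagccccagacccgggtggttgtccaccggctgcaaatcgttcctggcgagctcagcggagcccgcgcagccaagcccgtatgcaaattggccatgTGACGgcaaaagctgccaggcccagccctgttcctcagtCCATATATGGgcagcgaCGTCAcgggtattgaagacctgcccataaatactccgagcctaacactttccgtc
Nr4a2: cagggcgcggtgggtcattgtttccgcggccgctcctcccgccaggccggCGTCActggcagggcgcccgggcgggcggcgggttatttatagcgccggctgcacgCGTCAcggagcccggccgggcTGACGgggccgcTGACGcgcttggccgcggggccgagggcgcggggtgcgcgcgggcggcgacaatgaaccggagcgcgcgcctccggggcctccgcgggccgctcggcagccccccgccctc
Fos: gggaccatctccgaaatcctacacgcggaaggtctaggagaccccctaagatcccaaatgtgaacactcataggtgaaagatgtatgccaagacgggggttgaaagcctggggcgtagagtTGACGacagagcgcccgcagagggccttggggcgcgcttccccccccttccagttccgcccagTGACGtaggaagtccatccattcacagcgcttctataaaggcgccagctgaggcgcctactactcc
Sgk1: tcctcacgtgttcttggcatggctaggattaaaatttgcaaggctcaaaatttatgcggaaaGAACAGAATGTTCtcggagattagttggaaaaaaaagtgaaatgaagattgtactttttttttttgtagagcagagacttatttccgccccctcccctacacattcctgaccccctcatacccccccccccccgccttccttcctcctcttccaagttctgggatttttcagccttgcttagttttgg
The Egr2 window holds 1 CArG box between 2 CRE cores, the Nr4a2 window 4 CRE cores and no CArG box, the Fos window 2 CRE cores, and the Sgk1 window 1 glucocorticoid response element. None of the 4 windows holds the AP-1 site TGACTCA. Of 32851 windows of this length in the table, 17.8% held a CRE core, 1.55% the full CRE TGACGTCA, within which the CRE core lies, 4.46% an AP-1 site, 1.47% a CArG box and 0.387% a glucocorticoid response element. For the activity-induced transcription factors, 24 genes had 34 windows, and 26 of the 34 (76.5%) held a CRE core. The full CRE was in 1 of the 34 (2.94%), and in 6 of 33 windows (18.2%) of the activity-induced effectors. It was in 1 of 33 (3.03%) for the glucocorticoid targets and 0 of 42 for the heat shock chaperones. A CArG box was in 5 of the 34 windows (14.7%) of the transcription factors, from 2 genes. The glucocorticoid response element was in 3 of 33 windows (9.09%) of the glucocorticoid targets. The CRE core was also in 52.4% of windows of the heat shock chaperones, 36.4% of the activity-induced effectors and 24.2% of the glucocorticoid targets. Windows of a gene can overlap, as for Egr2, so a match can count more than once. Genes of 1 chromosome were left out of these list counts. A letter match describes the sequence, and binding was not measured. Sites outside the 250 bases were not searched, so a window with no match does not show that a gene lacks the element. Any link between these elements and the changes was not tested.

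Targets of the glucocorticoid receptor had a list median of 0.092 over 23 measured genes, with 6 (26.1%) higher in all 4 pairs and 1 lower, against 8.21% and 12.7% of all genes. Sgk1, a hormone-induced protein kinase, went from 7.70 to 8.05 in the WT amygdala, 7.75 to 8.30 in the WT hippocampus, 7.37 to 7.81 in the DKO amygdala and 7.95 to 7.94 in the DKO hippocampus. It was higher in 3 of 4 pairs, and the levels overlapped, since the 0 hr DKO hippocampus (7.95) lay above the 1 hr DKO amygdala (7.81). The difference was 0.33 ± 0.09 (SE), with an adjusted p of 0.439 in limma. Fkbp5, a co-chaperone that dampens the receptor, was 6.84, 7.27, 6.79 and 7.23 at 0 hr and 7.30, 7.56, 7.06 and 7.33 at 1 hr. It was higher in 4 of 4 pairs, by 0.28 ± 0.07 (adjusted p = 0.439), with the hippocampus above the amygdala at each time. Zbtb16, a zinc finger repressor, differed by 0.21, 0.24, 0.51 and 0.46, whereas Tsc22d3, an anti-inflammatory leucine zipper protein, differed by -0.02, 0.02, 0.13 and 0.33. Angptl4, a secreted lipase inhibitor, was the 1 member lower in all pairs, with differences of -0.25 to -0.15.

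Of 34 cytosolic and mitochondrial chaperones and their cofactors, 9 (26.5%) were higher in all 4 pairs and 1 was lower, with a list median of 0.072. Dnajb1, an Hsp40 cofactor of Hsp70, differed by 0.42, 0.04, 0.30 and 0.27, and Hsph1, a large Hsp70-type protein, by 0.18, 0.20, 0.09 and 0.15. The heat-inducible Hspa1a differed by 0.35, -0.11, 0.09 and 0.16, and the small heat shock gene Hspb1 stayed within 0.15 of 0 in each pair for both of its clusters. Of 28 genes of the endoplasmic reticulum, 7 were higher in all pairs and 0 lower, with a median of 0.088. They include the stress sensor Atf6 (0.12, 0.31, 0.19 and 0.16), the factor Xbp1 (0.11, 0.07, 0.30 and 0.27) and the disulfide isomerase Pdia3 (0.36, 0.32, 0.08 and 0.10). Of 20 clock genes, Bhlhe40 and Clock were among 4 higher in all pairs, and Dbp, an output gene of the clock, was lower (-0.10, -0.25, -0.18 and -0.17). Of 27 stress and fear neuropeptide genes, 0 (0%) were higher and 5 (18.5%) were lower in all 4 pairs, against 8.21% and 12.7% of all genes. The mean level of the list, 7.10 to 7.85 on the 8 arrays, was nearest that of the third quartile of all genes by level (7.35 to 7.40). In that quartile 9.33% were higher and 10.9% lower, and in the lowest and second quartiles 17.0% and 20.4% were lower. Single members ranged from 4.81 (Nps) to 12.25 (Penk).

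**Figure D2:**
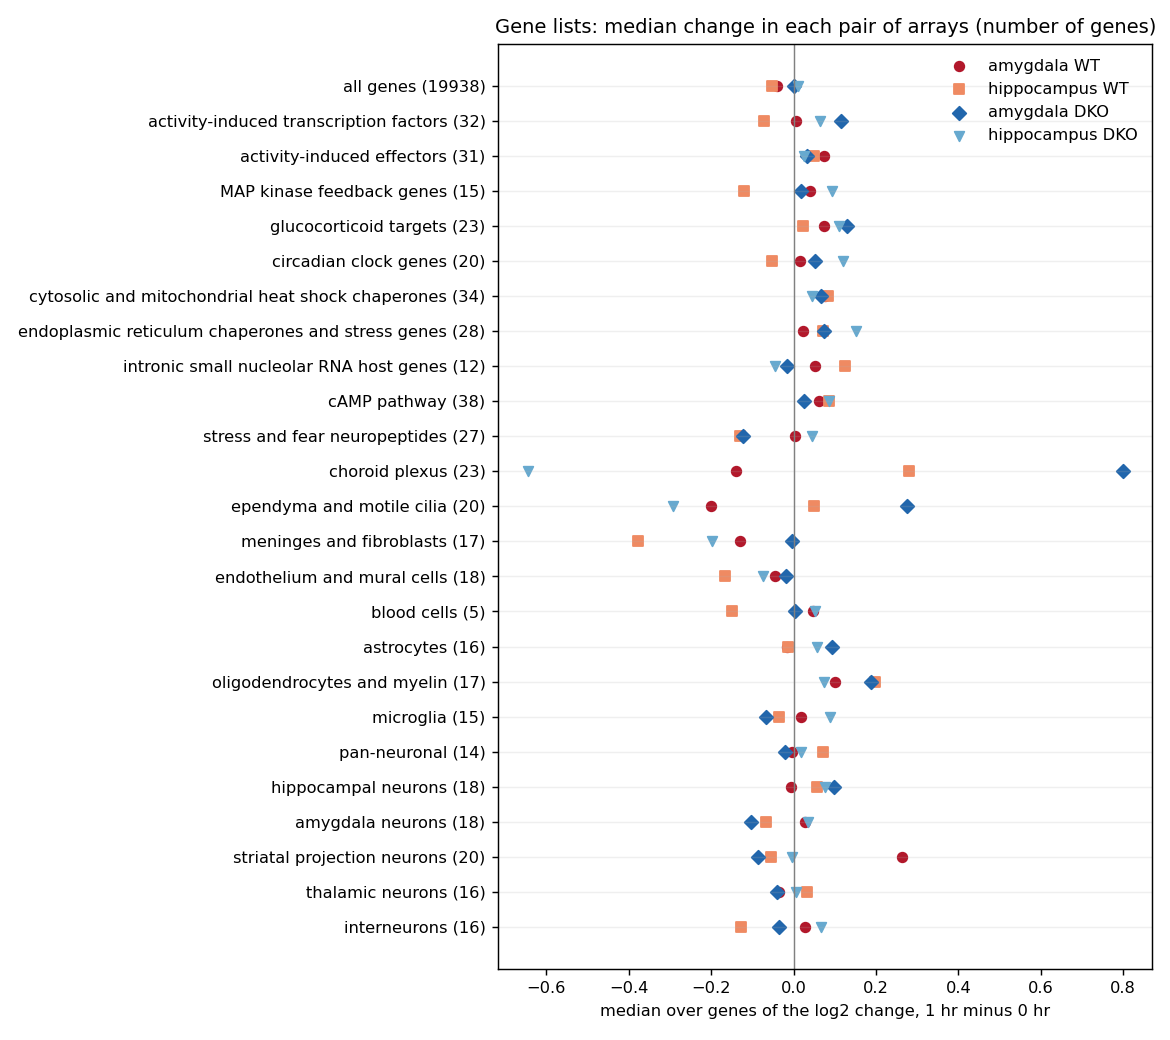
Median log2 change from 0 hr to 1 hr over the genes of each list, with 1 point per pair of arrays and the number of genes in brackets. The choroid plexus list spreads from -0.645 in the DKO hippocampus to 0.799 in the DKO amygdala, while the oligodendrocyte list lies at 0.075 to 0.197 in all 4 pairs.

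These counts depended on the level of the genes. When all genes were split into quartiles by their mean level over the 8 arrays, 1.38%, 2.41%, 9.33% and 19.7% of genes, from the lowest to the highest quartile, were higher in all 4 pairs, and 17.0%, 20.4%, 10.9% and 2.49% were lower. The median change was -0.057, -0.072, -0.012 and 0.051 in the same order. The standard deviation of all values was wider at 1 hr in each pair, by most in the WT hippocampus (1.795 to 1.862) and by least in the DKO hippocampus (1.842 to 1.845). A list of abundant transcripts, such as the chaperones, is therefore better set against the 19.7% of the highest quartile than against 8.21%. With median centring, where 15.5% of all genes were higher in all pairs, these numbered 9 of 23 glucocorticoid targets, 11 of 34 chaperones and 13 of 28 genes of the endoplasmic reticulum. After quantile normalization, where 7.48% of all genes were, they numbered 6, 7 and 6.

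**Figure D3:**
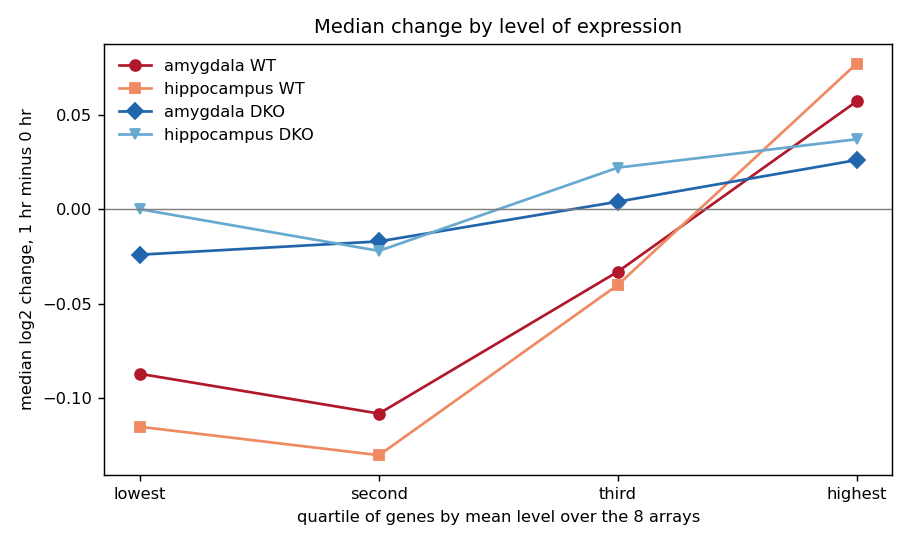
Median log2 change from 0 hr to 1 hr of genes in quartiles of mean level, 1 line per pair of arrays. The medians run from negative in the second quartile to positive in the highest in all 4 pairs, and the step is larger in the WT pairs.

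Markers of other cells moved with the pairs in part. In bulk tissue, fewer cells of a type and less RNA per cell cannot be told apart. Of 17 oligodendrocyte and myelin genes, 8 (47.1%) were higher in all 4 pairs and 1, the lineage factor Sox10, was lower, with list medians of 0.101, 0.197, 0.188 and 0.075 in the 4 pairs. Mobp, a structural protein of central myelin, differed by 0.32, 0.46, 0.58 and 0.16 (adjusted p = 0.439), and the myelin basic protein gene Mbp by 0.08, 0.20, 0.19 and 0.08. The mean level of this list was 7.82 to 7.97 in the amygdala and 8.11 to 8.22 in the hippocampus. Of 17 genes of meninges and fibroblasts, 6 (35.3%) were lower in all 4 pairs and 0 higher, among them the collagens Col1a1, Col1a2 and Col3a1, and after quantile normalization 2 were lower. Of 14 pan-neuronal genes, 0 moved the same way in all 4 pairs. The part of tissue makeup in the differences above was not tested.

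The choroid plexus, the tissue in the ventricles that makes cerebrospinal fluid, gave the widest differences within pairs, and they ran in opposite directions in the 2 DKO pairs. Ttr, the thyroid hormone carrier that this tissue secretes, was 11.17, 12.94, 10.14 and 13.33 at 0 hr and 11.03, 13.39, 13.08 and 10.25 at 1 hr. Its difference was thus 2.95 in the DKO amygdala and -3.08 in the DKO hippocampus, against -0.14 and 0.45 in the WT pairs. Ecrg4 went from 7.12, 8.67, 6.89 and 9.46 to 6.77, 9.30, 9.17 and 7.08, and Kl, the co-receptor of a phosphate-regulating hormone, from 6.59, 7.71, 6.47 and 7.96 to 6.63, 7.99, 7.77 and 7.04. Of 23 measured genes of the list, 23 were higher in the DKO amygdala and 0 in the DKO hippocampus, against 6 and 16 in the WT amygdala and hippocampus. Of all 19938 genes, 9961 were higher in the DKO amygdala and 10573 in the DKO hippocampus, against 8205 and 7718 in WT. The mean level of the list ranged from 6.57 to 7.54 in the amygdala and 6.64 to 7.54 in the hippocampus. Ependymal and cilia genes had list medians of -0.201, 0.049, 0.276 and -0.292 in the 4 pairs. The part of choroid plexus tissue in other differences of the DKO pairs was not tested.

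**Figure D4:**
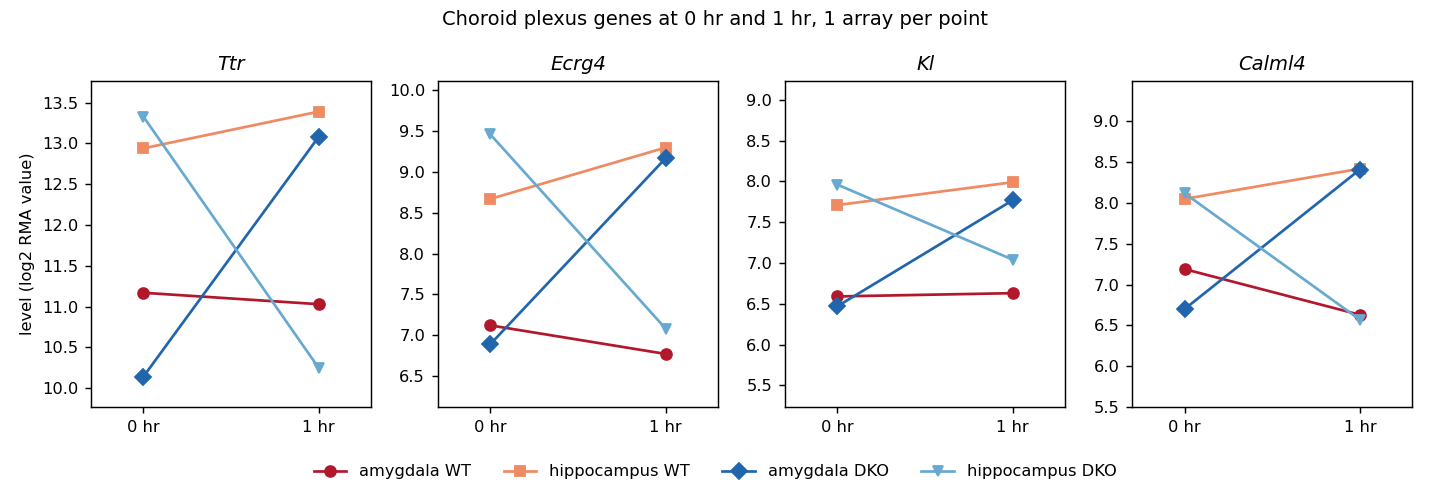
Levels (log2 RMA values) of choroid plexus genes at 0 hr and 1 hr, with 1 line per pair and 1 array per point. Ttr goes from 10.14 to 13.08 in the DKO amygdala and from 13.33 to 10.25 in the DKO hippocampus.

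Within single pairs, differences of 1.5-fold or more were counted with no test, as each condition has 1 array. Amygdala WT had 56 genes (0.281%) higher and 49 (0.246%) lower, and hippocampus WT had 35 (0.176%) and 43 (0.216%). In the DKO amygdala 49 (0.246%) were higher and 16 (0.0802%) lower, and in the DKO hippocampus 17 (0.0853%) and 46 (0.231%). Between the DKO pairs 15 genes met the limit in opposite directions, all 15 higher in the amygdala and lower in the hippocampus, and 11 of them belong to the choroid plexus list.

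Among genes with an above-median level, those most higher in the WT amygdala included the homeobox gene Dlx5 (0.89) and Tac1, the precursor of substance P (0.72), which differed by -0.06 to 0.29 in the other pairs. Tac1 is a marker of striatal projection neurons, and 15 of 20 measured genes of that list were higher in the WT amygdala pair. The list median was 0.264 there, against -0.055, -0.086 and -0.003 in the other pairs. Of all 19938 genes, 8205 were higher in the WT amygdala pair, with a median change of -0.04. The mean level of the list was 8.06 and then 8.29 in the WT amygdala, and its part in the Tac1 value was not tested. In the WT hippocampus they included Rab2b (0.83) and the Hsp90 cochaperone Chordc1 (0.75), and those lower were led by the retinoic acid carrier Crabp2 (-1.04), the neuropeptide Nts (-0.79) and the matrix proteoglycan Dcn (-0.75). Dcn and Acta2, a smooth muscle actin, are markers of meninges or vessels. Nts was 9.19, 7.57, 9.36 and 6.57 at 0 hr and 9.79, 6.78, 8.50 and 7.05 at 1 hr, higher in 2 pairs and lower in 2. In the DKO amygdala Ttr (2.95) and Ecrg4 (2.28) led the higher genes, and Nts (-0.86) and the neuropeptide Tac2 (-0.78) the lower. In the DKO hippocampus Egr2 (1.21) was first, followed by the small nucleolar RNA Snord14e (0.73) and the glutamate receptor gene Grm3 (0.70), and Ttr (-3.08) and Ecrg4 (-2.38) were lowest.

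Genes at 1.2-fold or more in the same direction in all 4 pairs were few, and apart from Egr2 they were singled out after their values were seen. Egr2 was listed beforehand, but with earlier results of these data known. There were 6 higher genes (0.0301% of 19938), namely Egr2, Anln, Bcl6, Exog, Strn and Sema3e, and 3 lower (0.015%), namely Adam34l, Kir3dl1 and Lce1i. Anln, an actin-binding protein that oligodendrocytes also use in myelin, was 6.57, 6.98, 6.47 and 7.11 at 0 hr and 7.03, 7.30, 7.18 and 7.61 at 1 hr. Its levels overlapped across pairs, with a difference of 0.49 ± 0.08 (SE). Bcl6, a transcriptional repressor, differed by 0.32, 0.33, 0.44 and 0.46, and its hippocampal levels (7.87 and 7.89 at 0 hr, 8.20 and 8.35 at 1 hr) lay above those of the amygdala (6.67 and 6.60, then 6.99 and 7.04). Sema3e, a secreted guidance cue, differed by 0.27, 0.29, 0.42 and 0.27. The 3 lower genes and Exog had mean levels below the median of every array.

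The next question was whether the change differed between regions or genotypes. In these fits the WT and DKO pairs served as the 2 replicates of a region, and the regions as the 2 replicates of a genotype. Any difference between WT and DKO therefore counted as spread in the fits per region, and any difference between regions did so in the fits per genotype. Fitted per region, 0 clusters (0%) passed in the amygdala (1460 at an unadjusted p under 0.05) and 0 (0%) in the hippocampus (1410). Without the DKO hippocampus pair, 55 clusters passed in the hippocampus, and 51 in the difference between regions. The hippocampal change then rests on the WT pair alone, and the spread comes from the amygdala pairs. The difference between regions gave 0 calls (0%), 644 clusters (2.23%) at an unadjusted p under 0.05 and a smallest adjusted p of 1. The difference between genotypes gave 0 calls (0%), 3411 clusters (11.8%) at an unadjusted p under 0.05 and a smallest adjusted p of 0.0684. Without the amygdala WT pair it gave 57 calls and without the amygdala DKO pair 8, but one genotype then has a single pair, which is assumed to vary like the others. With a variance trend and robust fitting the count was 120. Of the 3411, 1331 had a lower change in DKO than in WT and 2080 a higher one. By direction alone, 1008 genes (5.06%) were higher in both WT pairs and lower in both DKO pairs, and 1950 (9.78%) were the reverse.

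The genotype difference passed an adjusted p under 0.1 for 4 clusters (0.0139%), all of them higher at 1 hr in both WT pairs and lower in both DKO pairs. Among them was 1 of 2 clusters of Tsen15, a subunit of the tRNA splicing endonuclease, at 5.35, 5.41, 5.69 and 6.53 at 0 hr and 6.50, 6.28, 5.11 and 5.77 at 1 hr. The levels of 5.35, 5.41 and 5.11 lay below the lower quartile of their arrays (5.561, 5.633 and 5.612). WT levels lay below DKO levels at 0 hr and above them at 1 hr, and the DKO change minus the WT change was -1.68 ± 0.14 (SE), while the other Tsen15 cluster had a difference of -0.18. For Dnajc13, an endosomal J-domain protein, 1 of 15 clusters had a difference of -1.22 ± 0.11, and the median of its clusters was -0.08. The other two clusters had no gene symbol and differences of -1.36 and -1.34. Gas5, chosen after its values were seen, is a host gene of small nucleolar RNAs, in which 1 of 4 clusters had a difference of -1.43 (adjusted p = 0.148) and the median of the 4 was -0.23. Cspp1 and Adamts3, also chosen after their values were seen, had 1 cluster each among the smallest p-values of the genotype difference and others that were lower too: 4 of 14 Cspp1 clusters and 3 of 16 Adamts3 clusters had a difference below -0.5. For Dnajc13 2 of 15 clusters did, the second at -0.52 ± 0.17, and all 4 Gas5 clusters had a difference below 0.

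The changes of the 2 WT pairs resembled each other more than those of any other combination. Over all 28853 clusters, which share arrays and normalization and are not independent, Pearson's r between the WT amygdala and WT hippocampus changes was 0.422. For the other 5 combinations r lay between -0.033 and 0.087, with 0.015 for the DKO pairs. These correlations describe the arrays, with no test, since each rests on 4 arrays. At 1.5-fold, 5 genes were higher in both WT pairs, 8.93% of those in the amygdala and 14.3% of those in the hippocampus, and 0 were lower in both. In the DKO pairs 1 gene, Egr2, was higher in both and 0 were lower.

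**Figure D5:**
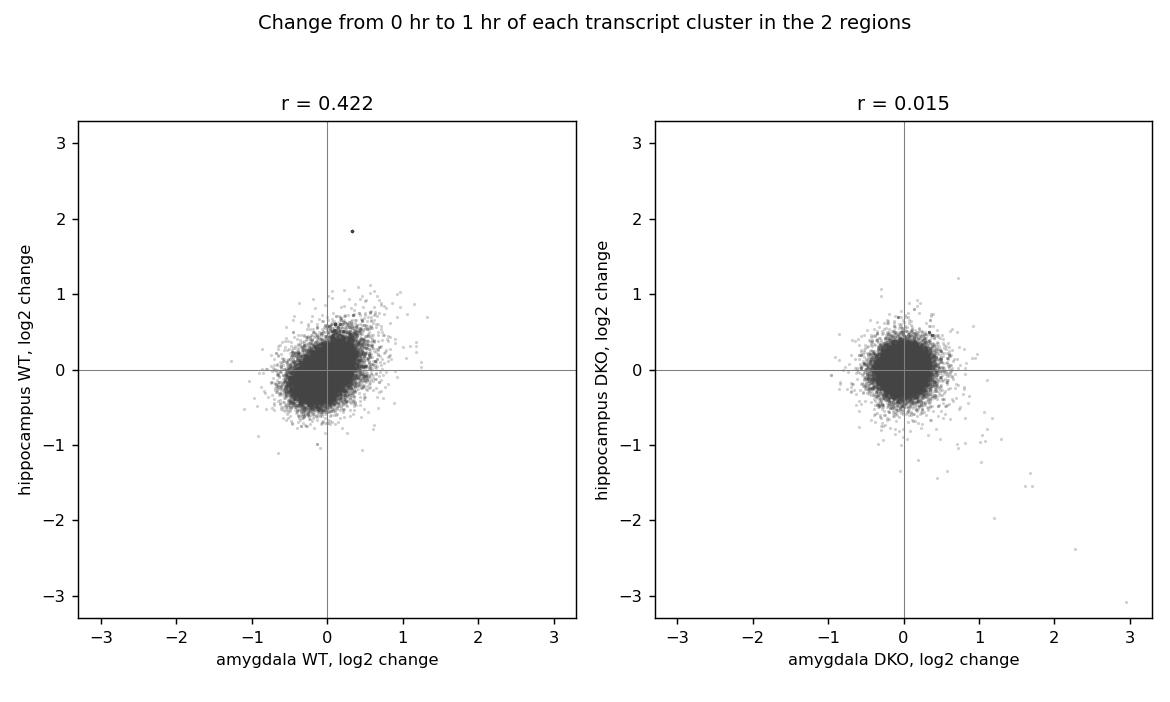
Log2 change from 0 hr to 1 hr in the hippocampus against that in the amygdala, 1 point per transcript cluster, for WT (left, r = 0.422) and DKO (right, r = 0.015). The DKO points at lower right, down to -3.08, are led by Ttr, a choroid plexus gene.

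Of the 5 genes higher in both WT pairs, which were singled out by these values, 3 are miRNA genes and 2, Zfp931 and Zfp935, code for zinc finger proteins. The mature miRNAs are shown to identify them, with the seed (bases 2 to 8, through which a miRNA finds its targets) in capitals and with RefSeq positions on GRCm38.p6. They lie at chr3:157544285-157544306 (plus strand), chrX:103573112-103573133 (minus) and chr12:109723508-109723528 (plus), and 1 arm of each gene is given.
mmu-miR-186-5p: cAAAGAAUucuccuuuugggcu
mmu-miR-374b-5p: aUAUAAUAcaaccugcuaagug
mmu-miR-376b-3p: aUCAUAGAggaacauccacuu
No 2 of these arms share a seed. The array measured the miRNA gene, and its probes do not separate the mature form from the precursor in these data. Mir186 was 4.91, 4.92, 5.14 and 5.39 at 0 hr and 5.74, 5.55, 4.68 and 5.32 at 1 hr, higher in both WT pairs and lower in both DKO pairs. Mir376b, of the imprinted cluster on chromosome 12, was 7.42, 6.17, 7.19 and 7.03 at 0 hr and 8.10, 6.93, 7.09 and 6.77 at 1 hr, with the same pattern. Mir374b differed by 0.63, 0.74, -0.28 and 0.29. The levels of Mir186 lay around or below the lower quartile of the arrays, which was 5.458 to 5.633. Over all 297 miRNA genes with a value, a class chosen after values were seen, 6 (2.02%) were higher and 48 (16.2%) lower in all 4 pairs. The median change was -0.050, and the mean level was 5.78 to 5.90 on the 8 arrays. These shares are near those of all genes of low level. In the lowest and second quartiles by level, 1.38% and 2.41% were higher, and 17.0% and 20.4% lower.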

How the data were processed

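Total RNA from micropunches of 5 to 10 pooled mice was hybridised to 1 Affymetrix whole-transcript mouse gene array per condition. The authors deposited RMA values on the log2 scale, made in Affymetrix Expression Console per the labels, and these were used as deposited. RMA shares strength between arrays and compresses differences of dim probes. The annotation build behind the arrays is not given in the sources used here. Array intensity files were not used here, so no background level or detection call was set, and the number of arrays limits the precision.

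The baseline arrays of the series were not used, and the later arrays entered only the alternative fit named below. Gene symbols came from the platform table, and 1621 clusters with several symbols and 5443 with none are named for no gene. The gene value was the mean of its own clusters (999 genes had several), and 476 clusters repeat the values of an earlier one. Tests were made with limma 3.58.1 in R 4.3.3 (lmFit, eBayes) on all 28853 clusters with no filter, region-by-genotype pair as a block, Benjamini-Hochberg adjustment and a limit of 0.05. The test was tried on simulated data first. Counts and figures used Python 3.11.15.

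The members, the gene lists and the genes listed beforehand were chosen with earlier results of these data known. Genes were named by a rule: calls of the tests, 34 genes listed beforehand whatever their values (31 had a cluster of their own symbol), and the 5 largest changes in each direction in each pair among genes above the median level, 61 genes in all. Other named genes are marked in the text as chosen or singled out by their values, are choroid plexus, marker or region checks, or are examples from the lists. The alternatives were a further quantile normalization, median centring, clusters above the median level, trend and robust fitting, array weights and no moderation. Others were a fit with 16 trained arrays, no block (region and genotype as separate terms), identical values taken once, either genotype alone and each pair left out.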

Additional observations from a re-analysis of the deposited data

Results flagged for a closer look

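Of the 61 named genes, 3 (4.92%) had 1 pair far from the other 3, by the gap to the nearest pair divided by the range of the 4 changes, and chance gives such a gap in about 1 of 20 groups. Over all 19938 genes the share was 5.0%, so the count is at the background. Homer1 (0.864) and the metabotropic glutamate receptor gene Grm3 (0.895) had their largest change in the DKO hippocampus, 0.43 and 0.70. Hspa8, a constitutive Hsp70 chaperone (0.914), had its largest in the WT hippocampus.

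Several results ran one way in both pairs of a group and the other way in both pairs of the other. Between genotypes this held for 9 of the 61 named genes (14.8%) and 14.8% of all genes, and between regions for 5 (8.2%) and 7.24% of all genes, so neither share stands apart. For genes, the DKO mean change minus the WT mean change was 0.29 for Fos, 0.44 for Nr4a1, 0.23 for Bdnf, 0.18 for Hspb1, -0.61 for Pcgf1, -0.89 for Mir376b, 0.76 for Lce1c, -0.91 for Nexn and -0.71 for Chordc1. The hippocampus mean change minus the amygdala mean change was -0.32 for Junb, -0.35 for Per1, 0.47 for Phgdh, -0.61 for Acta2 and 0.66 for Ptprc. In limma none of these differences passed an adjusted p of 0.05. For lists the differences were not tested. Those between genotypes were -0.118 for small nucleolar RNA host genes and 0.09 for astrocyte genes, and those between regions were 0.058 for pan-neuronal genes and 0.058 for thalamic neuron genes.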

How the results depend on the processing

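The count of 0 calls in each direction over the 4 pairs held under every setting run except one, added after seeing the data: the WT pairs alone gave 5 higher and 1 lower. The setting without the block of pairs kept region and genotype as separate terms. Each of the limma tests then gave 0 calls, and the smallest adjusted p for the 4 pairs was 0.689. Leaving out one pair at a time gave 0 to 55 calls in the hippocampus, 0 to 51 for the difference between regions and 0 to 57 for that between genotypes. The genotype difference had 4 calls with median centring, 2 above the median level, 120 with a variance trend and robust fitting, 2 with identical values taken once and 4 at an adjusted p under 0.1. The cause was not tested.

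Counts of genes at 1.5-fold in a pair moved as follows. With median centring they were 106 higher and 27 lower for the amygdala of WT mice, and 99 and 20 for their hippocampus. With quantile normalization they were 29 lower (amygdala WT), and 59 higher and 23 lower (hippocampus WT). Above the median level they were 22 and 8 (amygdala WT), 21 and 18 (hippocampus WT), 29 and 6 (amygdala DKO) and 5 and 24 (hippocampus DKO). At 2-fold they were 2 and 1, 1 and 2, 13 and 0, and 2 and 11 in the same order, and over clusters 135 and 112, 220 and 88, 83 and 37, and 45 and 79. The likeness of the WT changes was 0.348 after quantile normalization and 0.484 above the median level.

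None of 61 named genes was called in 727 alternatives, and 26 changed sign in at least 1, 9 of them other than on leaving out a pair. None moved by over 1 SD, but this is no measure of stability. Settings that alter only the spread cannot move a difference, and that of Egr2 stayed at 0.73 without moderation and without the block. Leaving out a pair can also move a mean only in part. Of 200 alternatives for 25 list medians, 17 moved by over 1 SD. With 1 array per condition and 4 pairs, the number of arrays limits what can be detected.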
